A study of Mus musculus with 15 samples.

Results

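Livers of mice of the Z line were compared with livers of mice of the M line while the transgene of both lines was shut off. The comparison used the 3 arrays titled Z1 (Z-off) and the 3 titled M1 (M-off), which are 6 of the 15 arrays in the series, and it was read across 12393 genes. Z-off and M-off mice were males aged 3 months that carried human alpha1-antitrypsin, in the mutant Z form or the wild type M form, under hepatocyte-specific inducible control. Both received doxycycline at 40 µg/mL in drinking water from conception. The other 9 arrays were 3 of Z-on and 3 of M-on mice, which carried the same transgenes without doxycycline, and 3 of nontransgenic littermates, also without doxycycline. Each array held liver RNA of 1 biological replicate, per the design text.

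Alpha1-antitrypsin is a protease inhibitor that hepatocytes secrete into blood. The Z variant folds poorly and accumulates inside the cell in the endoplasmic reticulum (ER), and the M variant is secreted. In a doxycycline-repressed system the drug keeps the transgene silent, so that the lines on doxycycline form the baseline against which expression is read. The labels name no founder, strain or promoter, and 1 transgene variant stands for each line, so the variant and the line cannot be told apart. No probe set for human alpha1-antitrypsin is used here, and transcript left over on doxycycline was not measured. Differences in cell numbers and in RNA per cell cannot be told apart in whole liver.

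The deposited signals had a trimmed mean of 150.08 on each of the 6 arrays. Median signals were 32.0 to 32.2 in Z-off and 30.4 to 31.3 in M-off livers. The ratio of 3' to 5' signal for Gapdh, a control for RNA integrity, was 0.817 to 0.824 in Z-off and 0.755 to 0.806 in M-off livers, without overlap, and its part in the results was not tested. Correlations of log2 signals over all genes were 0.979 to 0.984 among Z-off arrays, 0.983 to 0.986 among M-off arrays and 0.972 to 0.981 between lines. On the first principal component of the 6 arrays, which held 37.1% of the variance, Z-off 3 scored 7.89, below Z-off 1 at 21.0 and Z-off 2 at 21.3, while M-off arrays scored -22.6, -15.9 and -11.7. Hepatocyte markers such as Alb and Ttr were at high signal in all 6 arrays, with sums of 77799, 66461 and 70481.5 in Z-off and 68276, 74831 and 76526 in M-off livers.

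The lines on doxycycline differed in few genes at the threshold used. The 10 that were higher in Z-off livers included Pck1 of gluconeogenesis, the steroid enzyme Hsd17b6, the lipoprotein receptor Vldlr, the adhesion molecule Cdh1 and the kinase Pik3c2g, and the 6 that were lower included the plasma proteins Apcs and Hgfac. In limma on log2(signal + 16), 16 of 12393 genes were called at an adjusted p under 0.05, which is 0.129% of the genes tested. Of these, 10 (0.0807%) were higher and 6 (0.0484%) lower in Z-off livers, and 12 differed by more than 1 log2 unit. All 16 had the 3 arrays of each line apart, as had 19.5% of all genes (10.7% with Z-off higher and 8.79% with Z-off lower). At an unadjusted p under 0.05 there were 1169 genes (9.43%), 645 higher (5.2%) and 524 lower (4.23%). The median difference over all genes was 0.02 log2 units. An exact permutation test of 3 against 3 cannot give a two-sided p under 0.1, so the calls rest on the spread that limma shares across genes and groups.

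The number of calls depended on single arrays. It was 10 without Z-off 1, 6 without Z-off 2, 52 without Z-off 3, 6 without M-off 1 and 7 without M-off 3. All 16 genes kept their direction each time, and Pik3c2g, Ccng2 and Hgfac also stayed called without any 1 of the 6 arrays. Asic5 and Hsd17b6 kept their call in 5 of the 6 fits that left out 1 array, and Pck1 in 3. Corin, Apcs, Btg1, Tmem41b, Vldlr, Cdh1, Mmp24 and Lactb kept it in 1 of the 6, and Cirbp and Slc35a5 in 0. After quantile normalization 8 of the 16 stayed called, and Cirbp, Slc35a5, Btg1, Tmem41b, Vldlr, Cdh1, Mmp24 and Lactb did not. With weights estimated for each array the fit called 229 genes. The plot of the called genes by array shows every replicate.

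**Figure D1:**
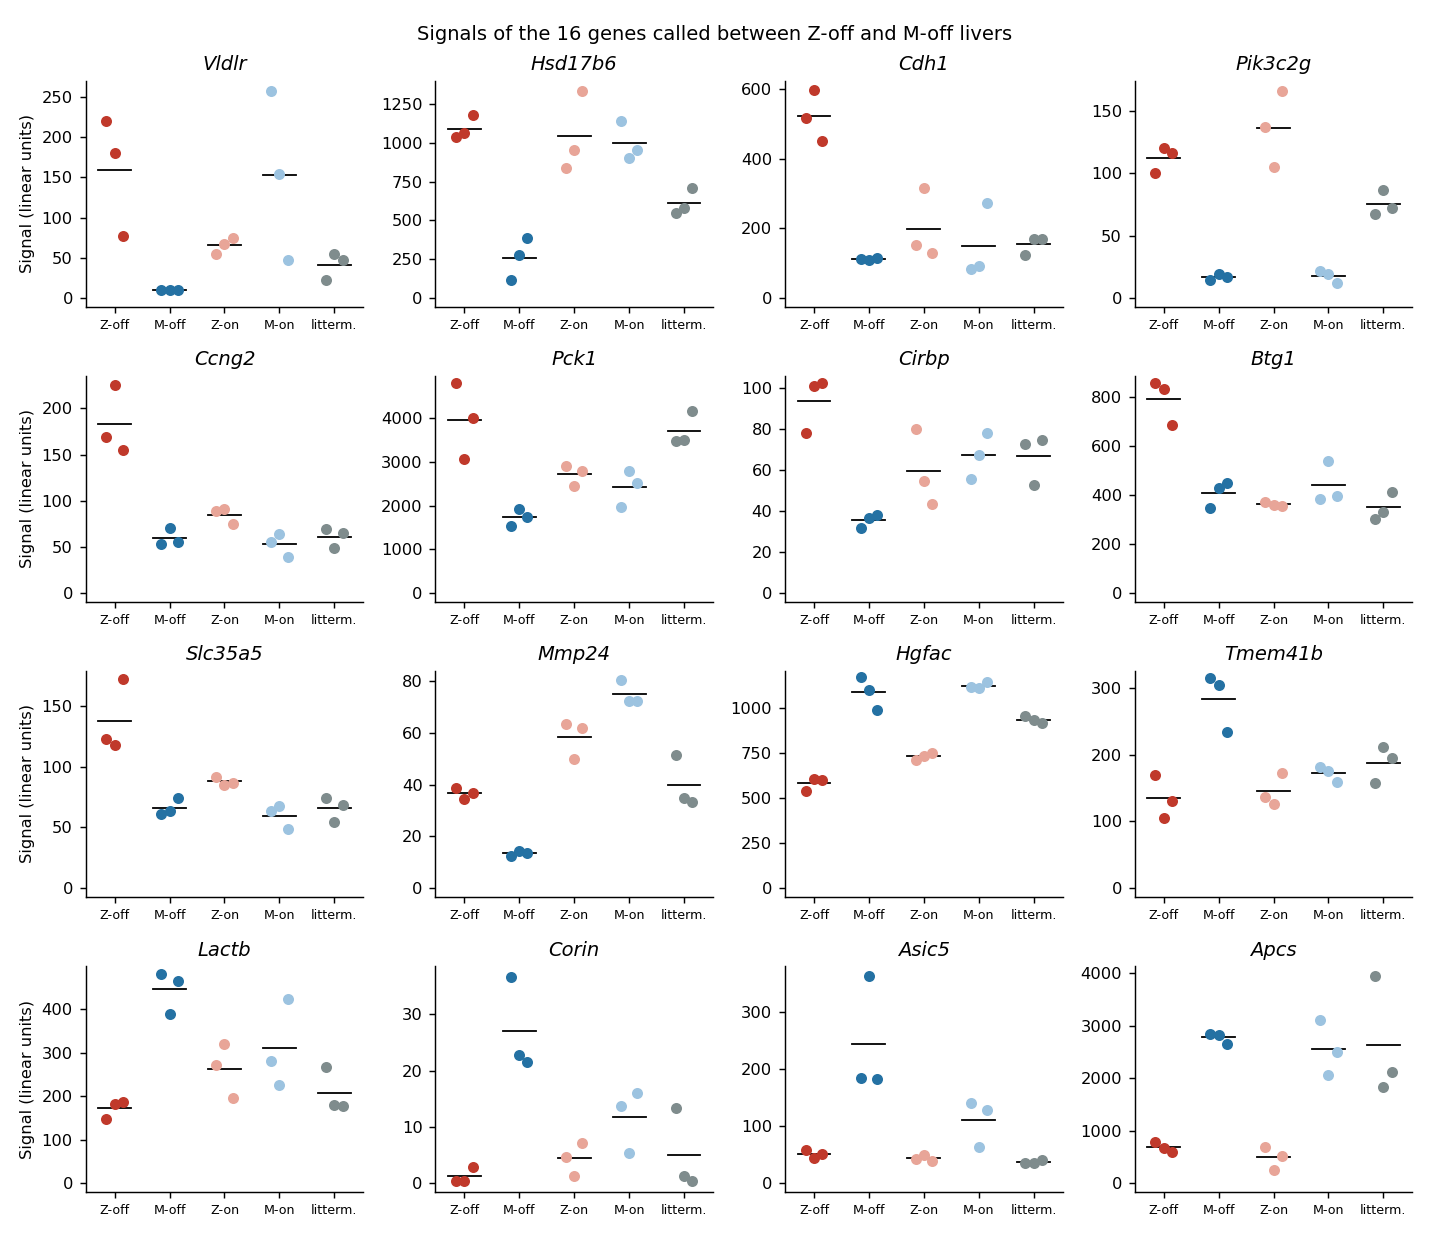
Linear signal of each called gene (1 panel a gene, y axis from 0) on the 3 arrays of Z-off, M-off, Z-on, M-on and littermate livers; points are arrays and bars are means. Panels run by the log2 difference with 16 added to each signal, from Vldlr at 2.66 to Apcs at -2.01, and Z-off and M-off points do not overlap in any panel.

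Vldlr, Cdh1 and Pik3c2g were called and higher in Z-off livers. Vldlr, the receptor that binds very low density lipoprotein, had signals of 221, 180.4 and 76.6 in Z-off livers, against 9.7, 9.6 and 9.8 in M-off livers. Z-off 3 was the lowest of its line, and M-off arrays were uniformly low (log2 difference 2.66 ± 0.44, SE, adjusted p = 0.0456). The M-off signals were below the added constant of 16, so the size depends on it, and the difference was 3.77 with a constant of 1 and 1.54, without a call, with 64. Cdh1, which encodes the epithelial adhesion molecule E-cadherin, had 515, 597 and 451 in Z-off livers, against 112, 108 and 113 in M-off livers. All Z-off arrays lay far above the M-off arrays, which were nearly equal (log2 difference 2.07 ± 0.36, SE, adjusted p = 0.0491). Pik3c2g encodes a class II phosphoinositide 3-kinase of liver and had 99.8, 120 and 116 in Z-off livers, against 14.5, 19.1 and 16.8 in M-off livers. The groups were widely apart, and this gene had the smallest adjusted p of all genes (log2 difference 1.96 ± 0.16, SE, adjusted p = 0.000119). It was called in all 21 alternative analyses run, with differences of 1.12 to 2.67. The M-off signals of Pik3c2g were near the added constant of 16, so the size of its difference also depends on that constant.

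Metabolic enzymes formed another group. Hsd17b6, an enzyme that oxidises steroids, had signals of 1039, 1061 and 1178 in Z-off livers, against 113, 278.5 and 384 in M-off livers. Z-off arrays were close together, while M-off 1 was the lowest array and M-off 3 the highest of its line (log2 difference 2.16 ± 0.31, SE, adjusted p = 0.0169). Pck1, the cytosolic phosphoenolpyruvate carboxykinase that commits carbon to gluconeogenesis, had 4804, 3078.5 and 4013 in Z-off livers, against 1536, 1926 and 1738 in M-off livers. Every Z-off value was above every M-off value, with a wide spread among Z-off arrays (log2 difference 1.17 ± 0.18, SE, adjusted p = 0.0251). Lactb, a serine protease-like protein of mitochondria, ran the other way with 148.5, 181 and 186 in Z-off livers, against 482, 389.6 and 465 in M-off livers. No Z-off array reached the lowest M-off array (log2 difference -1.30 ± 0.23, SE, adjusted p = 0.0491).

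The stretch upstream of Pck1 is shown because its response to cyclic AMP runs through a known promoter element. The motif searched was TTACGTCA, the cAMP response element, on both strands of the 250 bases before each start in RefSeq's promoters of GRCm38.p6. It was present in 147 of 32851 promoters (0.447%) and in 2 of the 15 called genes with a promoter in that table, Pck1 and Btg1. Capitals mark the match in Pck1, and no other motif searched fell in the window. The gene was picked for display after its values were seen, and the match describes these letters only.

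Pck1 (chr2:173152929-173153038, plus strand): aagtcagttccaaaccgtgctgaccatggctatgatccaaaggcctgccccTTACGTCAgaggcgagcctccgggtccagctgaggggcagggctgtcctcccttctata

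Ccng2, Btg1 and Cirbp were also called and higher in Z-off livers. Ccng2, a cyclin associated with cell cycle exit, had 169, 226 and 155 in Z-off livers, against 53.3, 70.5 and 55.5 in M-off livers. The lowest Z-off array was above the highest M-off array by a wide margin (log2 difference 1.38 ± 0.18, SE, adjusted p = 0.00823). Btg1, an antiproliferative factor, had 859, 832 and 688 in Z-off livers, against 345, 429 and 449 in M-off livers. Its M-off values sat close to one another and below all Z-off values (log2 difference 0.93 ± 0.16, SE, adjusted p = 0.0491). Cirbp, an RNA-binding protein induced by cold, had 78.2, 101 and 102.5 in Z-off livers, against 31.7, 36.8 and 38.2 in M-off livers. Z-off 1 was the lowest of its line and still above all M-off arrays (log2 difference 1.09 ± 0.18, SE, adjusted p = 0.0479).

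Slc35a5, a member of the nucleotide sugar transporter family, had 122.5, 118 and 172 in Z-off livers, against 60.9, 63.1 and 74.0 in M-off livers. Z-off 3 was the highest array and the lines did not overlap (log2 difference 0.89 ± 0.16, SE, adjusted p = 0.0491). Mmp24, a membrane-bound matrix metalloproteinase, had 38.8, 34.5 and 36.8 in Z-off livers, against 12.5, 14.2 and 13.4 in M-off livers. These signals were low in both lines, and the M-off mean was below the constant of 16 added before taking logs (log2 difference 0.84 ± 0.13, SE, adjusted p = 0.0336).

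Among the called genes lower in Z-off livers, Apcs had the largest difference. Apcs encodes serum amyloid P component, a pentraxin that is an acute phase protein in the mouse, and had 783, 669 and 594 in Z-off livers, against 2851, 2833.5 and 2658.5 in M-off livers. The 3 arrays of each line were tightly grouped, with no overlap (log2 difference -2.01 ± 0.32, SE, adjusted p = 0.0336). Hgfac encodes the plasma protease that activates hepatocyte growth factor and had 537, 608 and 599 in Z-off livers, against 1172, 1097 and 989 in M-off livers. Its groups were separated, with little spread inside either (log2 difference -0.88 ± 0.11, SE, adjusted p = 0.00653). Corin, a membrane protease best known from the heart, had 0.4, 0.4 and 2.8 in Z-off livers, against 36.7, 22.8 and 21.5 in M-off livers. Z-off signals were close to 0, so the size of this difference depends on the constant added (log2 difference -1.31 ± 0.23, SE, adjusted p = 0.0491).

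Asic5, a cation channel of the acid-sensing family, had 57.9, 44.7 and 50.2 in Z-off livers, against 184, 363.5 and 182 in M-off livers. M-off 2 stood above the other arrays, and all M-off arrays were above all Z-off arrays (log2 difference -1.89 ± 0.26, SE, adjusted p = 0.0147). Tmem41b, a membrane protein of the ER that takes part in autophagy, had 169, 105 and 130.5 in Z-off livers, against 314.5, 304 and 233 in M-off livers. The lines did not overlap on that probe set (log2 difference -1.003 ± 0.18, SE, adjusted p = 0.0491). The other 4 probe sets of Tmem41b differed by 0.11 to 0.17 log2 units in the opposite direction, without a call.

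Of the 16 called genes, 8 had more than 1 probe set. Of their 16 further probe sets, 11 had the same sign and 5 the opposite sign, 8 had the same sign with an unadjusted p under 0.05, and 0 were called (limma, adjusted over all probe sets). The second probe set of Btg1 differed by 0.91 (adjusted p = 0.0589) and that of Ccng2 by 1.14 (adjusted p = 0.0661). Dimmer probe sets of Vldlr differed by 1.36 (adjusted p = 0.189), 0.57 and 0.11. The second probe sets of Hsd17b6 and Pck1, counted among those of the same sign, differed by only 0.008 and 0.14. Their signals were below the added constant of 16 on all 6 arrays. A further Mmp24 probe set, dim on all 6 arrays, differed by -0.11. Across RefSeq gene order, 0 pairs of called genes lay next to each other or 1 gene apart.

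The same line contrast without doxycycline, Z-on minus M-on, shares no array with the off comparison. Arrays labelled M-on 1 and M-on 2 gave female-type sex-linked signals although the mice are labelled male, so values without them are also given. M-on 3, the array then left, had a low Xist signal of 32.6, yet its Y-linked signals were also below all Z-on arrays. Eif2s3y was 42.1 against 105.3 to 147.7, Uty 8.5 against 31.7 to 51.8 and Kdm5d 23.2 against 46.3 to 54.3. Z-on minus M-on had 640 calls (5.16%), 456 higher (3.68%) and 184 lower (1.48%). The count was 1269 without M-on 1 and M-on 2, 1664 without M-on 1 alone, 75 without M-on 2 alone and 214 without M-on 3. Of the 16 genes of the off comparison, 12 had the same sign there and 4 were called with that sign, namely Pik3c2g, Apcs, Asic5 and Hgfac. Across all 12393 genes the differences off and on had a Pearson correlation of 0.024 and a Spearman correlation of 0.051, as a description over genes that are not independent. Without M-on 1 and M-on 2 the correlations were 0.067 and 0.078, and 12 of the 16 genes again had the same sign, with Vldlr gained and Cdh1 lost.

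Pik3c2g had 137, 105 and 166 in Z-on livers, against 21.2, 19.5 and 12.3 in M-on livers, again far apart (log2 difference 2.17 ± 0.16, SE, adjusted p = 3.38e-05). For Apcs the signals were 690.5, 258 and 519 in Z-on livers, against 3119, 2063 and 2501 in M-on livers (log2 difference -2.44 ± 0.32, SE, adjusted p = 0.00238). The lowest M-on array was above the highest Z-on array. Hgfac had 710.4, 732 and 749 in Z-on livers, against 1114, 1113 and 1146 in M-on livers, with narrow ranges in both groups (log2 difference -0.61 ± 0.11, SE, adjusted p = 0.0112). Asic5 had 42.4, 49.4 and 38.0 in Z-on livers, against 141, 63.3 and 127.5 in M-on livers, where M-on 2 came nearest to the Z-on arrays (log2 difference -1.04 ± 0.26, SE, adjusted p = 0.0368). Without M-on 1 and M-on 2 all 4 remained called, with differences of 2.41 for Pik3c2g, -2.42 for Apcs, -1.28 for Asic5 and -0.64 for Hgfac. Ccng2 was then also called, with a difference of 0.86 (adjusted p = 0.0344) against 0.56, adjusted p = 0.0851 with all arrays. A lone M-on array is taken in that fit to vary like the other groups.

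**Figure D2:**
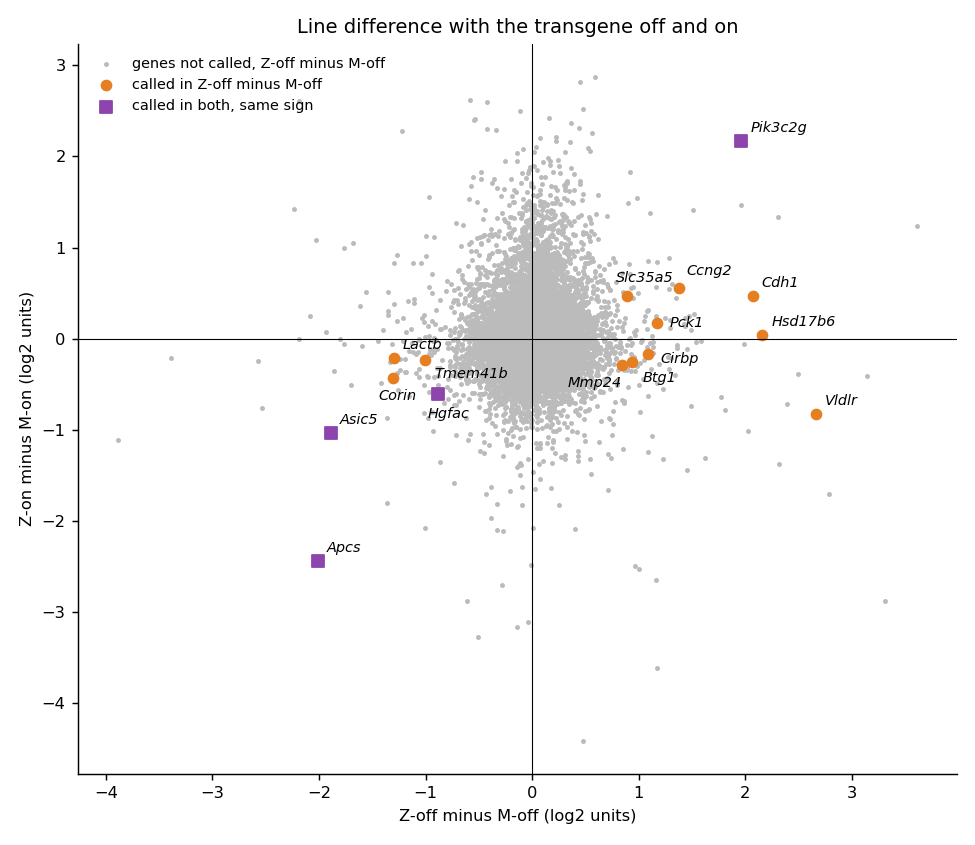
Each point is a gene, with the Z-off minus M-off difference on the x axis and the Z-on minus M-on difference on the y axis, both in log2 units. Purple squares are the 4 genes called in both with the same sign, at 1.96 and 2.17 for Pik3c2g and -2.01 and -2.44 for Apcs, and orange points are the other 12 genes called in Z-off minus M-off.

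The difference between the off and on contrasts was itself tested as an interaction, which called 76 genes (0.613%). That count rested on single arrays. It was 19 without Z-off 1, 3 without Z-off 2, 5 without M-off 1, 2 without M-off 2, 7 without M-off 3, 4 without M-on 2 and 1022 without M-on 1. With the replicate number as a block it was 2. Of the 16 genes, 5 were among them, namely Vldlr, Hsd17b6, Cirbp, Btg1 and Mmp24, and since they were chosen for their off difference, which enters the interaction, these calls are no independent evidence. Vldlr had 54.1, 67.1 and 75.1 in Z-on livers, against 258, 155 and 46.7 in M-on livers, so that M-on 1 and M-on 2 were the high arrays there, and its on difference was -0.82 with all arrays and 0.37 without those, neither of them called. Hsd17b6 had 840.3, 951.5 and 1338 in Z-on livers, against 1138, 900 and 956.5 in M-on livers, with the groups overlapping. Cdh1, Lactb, Corin and Tmem41b also overlapped between the on groups, with differences of 0.47, -0.21, -0.43 and -0.23, none of them called. Without M-on 1 and M-on 2 these were -0.53, -0.69, -0.66 and -0.13, also uncalled, so that the sign of Cdh1 turned. The median poly-A control signal was 1.8 to 3.6 on the 6 on arrays and 36.1 to 52.1 on the 6 off arrays, and its part in the interaction was not tested.

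The littermates, which had neither transgene nor doxycycline, gave a further level for each gene. Against the littermates 3019 genes (24.4%) were called for Z-off, 507 higher (4.09%) and 2512 lower (20.3%), and 3274 (26.4%) for M-off, 495 higher (3.99%) and 2779 lower (22.4%). These contrasts share the littermate arrays, which also differed from the off arrays in array-wide measures. Median signals were 42.3 to 44.9 on littermate arrays and 30.4 to 32.2 on Z-off and M-off arrays. The Gapdh control ratio for RNA integrity was 1.054 to 1.113 on littermate arrays and 0.755 to 0.824 on Z-off and M-off arrays. The median difference over all genes was -0.19 in both contrasts. The part of these measures in the littermate calls was not tested. The littermate mean lay between the line means for 12 of the 16 genes, above both for Mmp24, and below both for Btg1, Slc35a5 and Asic5. For 7 genes the contrast with littermates was called in Z-off and not in M-off. These were Vldlr, Cdh1, Ccng2, Btg1, Slc35a5, Apcs and Hgfac. For 8 it was called in M-off and not in Z-off, namely Hsd17b6, Pck1, Cirbp, Mmp24, Asic5, Corin, Lactb and Tmem41b. Pik3c2g was called in both, higher in Z-off and lower in M-off than in littermates. The 16 genes were chosen for their line difference, which favours a littermate mean between the lines. That choice also favours a littermate call in at least 1 line. These counts are therefore no independent evidence, and the shares over all genes were not computed.

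Pik3c2g had 67.3, 86.8 and 71.7 in littermates, and its differences were 0.49, adjusted p = 0.0416 for Z-off and -1.47, adjusted p = 0.000107 for M-off. Pck1 had 3476, 3514 and 4168 in littermates, close to the Z-off range, and differed by 0.07, adjusted p = 0.8 in Z-off and -1.10, adjusted p = 0.000804 in M-off. Asic5 had 35.6, 36.0 and 40.4 in littermates, below all M-off arrays, with 0.32, adjusted p = 0.395 in Z-off and 2.21, adjusted p = 0.00014 in M-off. For Cdh1 the littermates had 123, 169 and 168, near the M-off range, with 1.67, adjusted p = 0.00518 in Z-off and -0.40, adjusted p = 0.443 in M-off. The littermate values of Apcs were 3949.5, 1825 and 2116, with littermate 1 highest, and its differences were -1.85, adjusted p = 0.0016 in Z-off and 0.16, adjusted p = 0.747 in M-off.

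The gene lists read next were 32 pathway lists, which together with 13 lists of cell type markers held 1095 entries, 952 of them measured. Only 3 called genes belonged to any list, namely Pck1 (gluconeogenesis), Cdh1 (zonation) and Apcs (acute phase). The lists are therefore described by their counts at an unadjusted p under 0.05, beside 5.2% higher and 4.23% lower among all genes, and by their medians, beside 0.02 for all genes. The proteasome, apolipoprotein, respiratory chain and antigen presentation lists had 0 genes at that level in either direction.

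**Figure D3:**
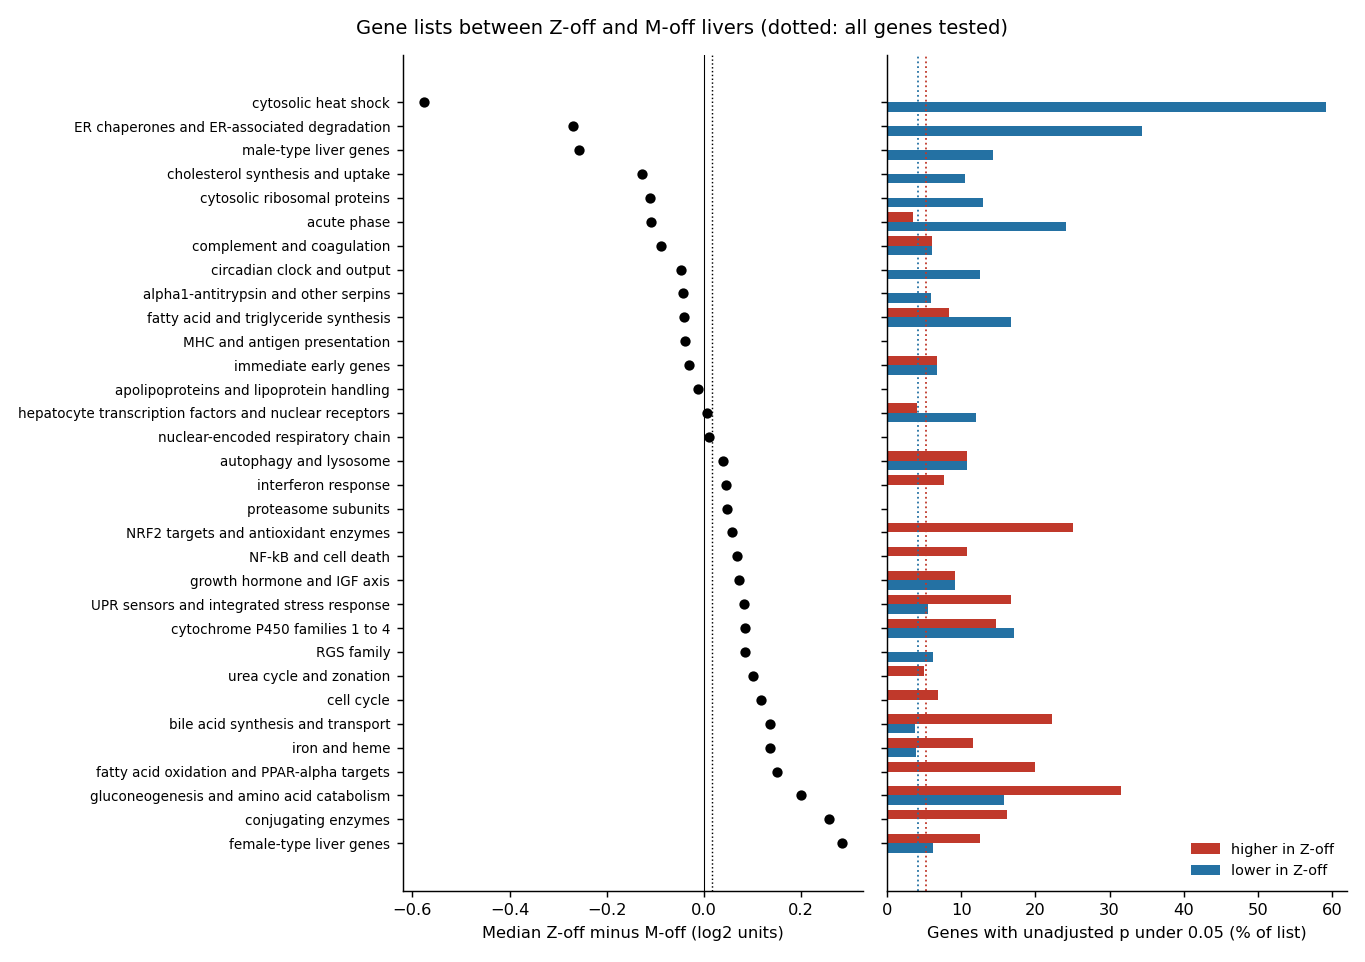
Left, median Z-off minus M-off difference of each gene list in log2 units; right, percent of its genes with an unadjusted p under 0.05 that were higher (red) or lower (blue) in Z-off livers. Dotted lines are the values of all 12393 genes; cytosolic heat shock, at a median of -0.58 and 59.1% lower, stands at the top.

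Cytosolic heat shock genes, whose products fold and refold proteins under stress, had lower signals in Z-off livers as a list, without a call in the fit of all 15 arrays. Of 22 measured genes, 0 were called, 13 (59.1%) had lower values at an unadjusted p under 0.05, and 0 had higher values at that level. All Z-off arrays lay below all M-off arrays for 15 of the 22, beside 8.79% of all genes. The median was -0.58. Dnajb1, a J-protein that works with Hsp70, had 214, 95.2 and 140.3 in Z-off livers, against 329.5, 359 and 312 in M-off livers. The lines did not overlap (log2 difference -1.14 ± 0.24, SE, adjusted p = 0.0968). Fkbp4, a cochaperone of Hsp90, had 386, 371 and 311 in Z-off livers, against 586.5, 543 and 552 in M-off livers, also apart (log2 difference -0.64 ± 0.14, SE, adjusted p = 0.098). Hspa1b, an inducible Hsp70 named after its values were seen, had 328, 182 and 336 in Z-off livers, against 1584, 1536 and 987 in M-off livers (log2 difference -2.23 ± 0.53, SE, adjusted p = 0.121). All M-off arrays were well above the Z-off arrays. Its near-identical copy Hspa1a, also named after its values were seen, differed by -1.22, and the probes may not tell the pair apart.

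The count of heat shock genes with lower values at the unadjusted threshold was 9 to 14 across the alternatives run on it, and the median -0.64 to -0.47. In Z-on minus M-on, 4 of the 22 were called, all of them higher, beside 3.68% of all genes called higher. At the unadjusted threshold 0 were lower and 7 higher there, with a median of 0.09, beside 8.84% lower and 10.8% higher among all genes. Without M-on 1 and M-on 2 these counts were again 0 and 7, with a median of 0.24, beside 9.47% lower and 13.1% higher. Against littermates the list medians were -0.19 for Z-off and 0.45 for M-off, with all-gene medians of -0.19 for both. Of the 22 genes, 1 was called for Z-off and 7 for M-off in those contrasts, beside 24.4% and 26.4% of all genes. All 7 M-off calls were higher than littermates, and 3.99% of all genes were called higher there. At the unadjusted threshold 9 were higher and 0 lower for M-off, beside 7.32% and 31.3% of all genes. For Z-off 3 were higher and 1 lower, beside 7.32% and 29.6%. In a fit of the 6 off arrays alone, 2 of the 22 passed the adjusted threshold, namely Hspa1b (adjusted p = 0.0354) and Dnajb4, a J-protein named after its values were seen (difference -0.92, adjusted p = 0.0354), in limma.

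**Figure D4:**
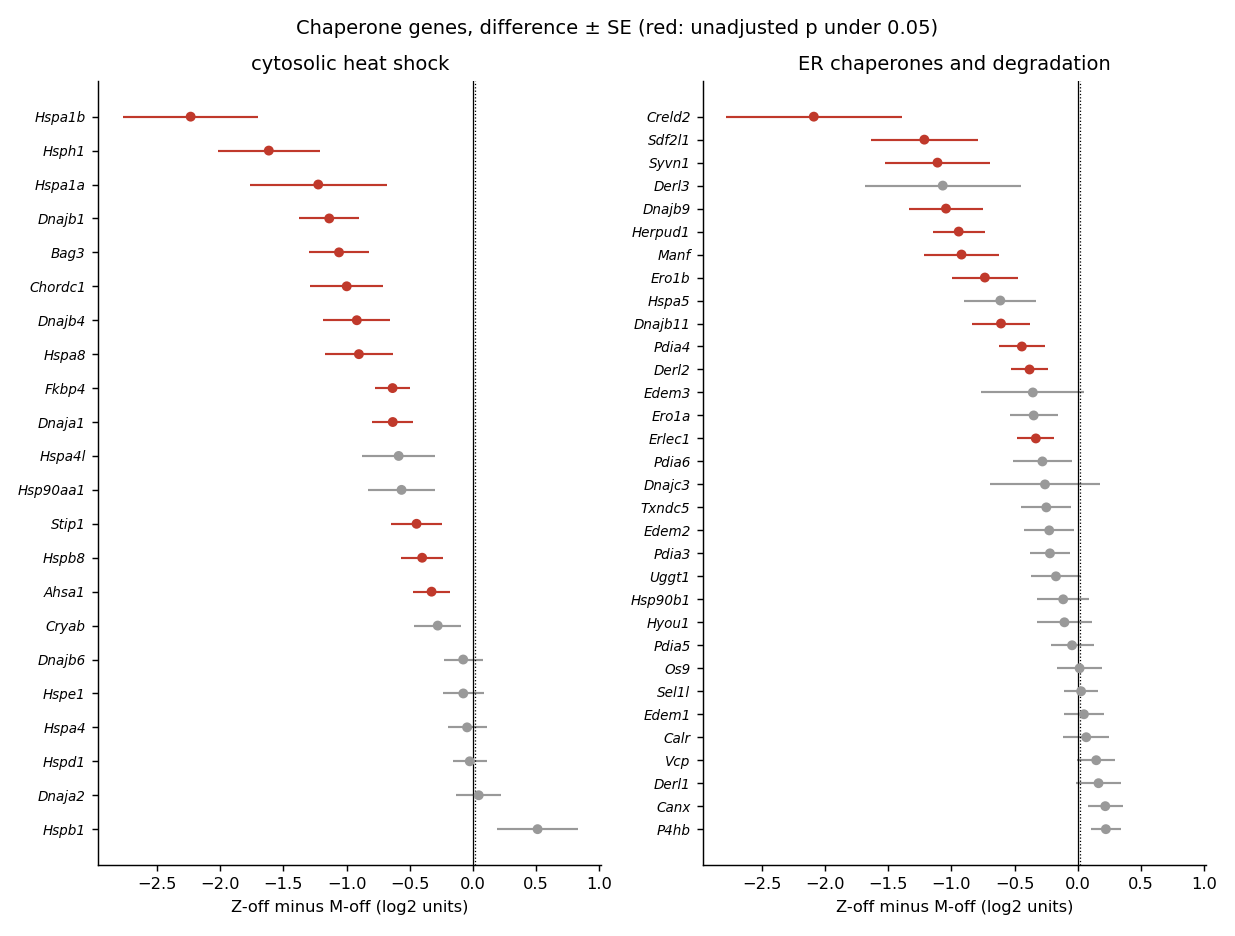
Z-off minus M-off difference in log2 units (points) with its SE (lines) for each measured gene of the cytosolic heat shock list (left) and of the ER chaperone and degradation list (right); red marks an unadjusted p under 0.05 and the dotted line is the median of all genes. Hspa1b at -2.23 and Creld2 at -2.09 are the lowest, and 0 genes in either panel passed the adjusted threshold in this fit of all 15 arrays.

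Genes of ER chaperones and ER-associated degradation, which handle newly made secretory proteins, showed the same direction with smaller values. Of 32 genes, 0 were called, and 11 (34.4%) had lower values at an unadjusted p under 0.05. All Z-off arrays lay below all M-off arrays for 18 of the 32, beside 8.79% of all genes. The median was -0.27. Herpud1, an ER membrane protein of the degradation machinery, had 1421.5, 957 and 1245 in Z-off livers, against 2535, 2185 and 2210.3 in M-off livers. The lines were apart (log2 difference -0.94 ± 0.21, SE, adjusted p = 0.101). Dnajb9, an ER J-protein and target of the unfolded protein response, had 1365, 655 and 923 in Z-off livers, against 1775, 2050.1 and 2039 in M-off livers (log2 difference -1.04 ± 0.29, SE, adjusted p = 0.178). Z-off 1 was the highest of its line and still under all M-off arrays. Hspa5 encodes BiP, the main Hsp70 of the ER, and had 4636, 3836.5 and 3351 in Z-off livers, against 5666.5, 6171 and 6119.5 in M-off livers (log2 difference -0.61 ± 0.29, SE, adjusted p = 0.527).

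Creld2, an ER protein induced by ER stress and named after its values were seen, had 469, 440.3 and 226 in Z-off livers, against 1585, 1513 and 1663.5 in M-off livers (log2 difference -2.09 ± 0.69, SE, adjusted p = 0.286). Every M-off array exceeded every Z-off array. At the other end of the list, the disulphide isomerase P4hb and the lectin chaperone Canx had differences of 0.22 and 0.22. Xbp1, the transcription factor made by IRE1 splicing, had 2213, 2181 and 2851 in Z-off livers, against 2537, 2641 and 2598 in M-off livers (log2 difference -0.11 ± 0.16, SE, adjusted p = 0.934). Ddit3, which encodes CHOP, had 87.6, 53.1 and 59.3 in Z-off livers, against 110.2, 134 and 125 in M-off livers, without overlap (log2 difference -0.77 ± 0.17, SE, adjusted p = 0.102). Over the UPR list of 18 genes, 3 were higher and 1 lower at the unadjusted threshold, with a median of 0.08. The count of 11 for the ER list was 7 to 14 across alternatives, being 7 without Z-off 3, and Creld2 was called in the fit of the 6 off arrays alone (limma, adjusted p = 0.0354). With the transgene on, 6 of the 32 were higher and 1 lower at the unadjusted threshold, beside 10.8% higher and 8.84% lower among all genes. The ER list median was then 0.05, and -0.06 without M-on 1 and M-on 2.

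The ER stress response element is the promoter motif through which many ER chaperone genes answer the unfolded protein response, and windows that hold it are shown for genes at both ends of the list. The motif was searched as CCAAT followed after 9 bases of any kind by CCACG, on both strands of the 250 bases upstream of RefSeq starts (GRCm38.p6). It occurred in 37 of 32851 promoters (0.113%) and in 10 of the 28 list genes with a promoter in the table (35.7%). The 10 genes had a median difference of -0.45 (range -2.09 to 0.22), with 3 of them lower at the unadjusted threshold, and the 18 without the motif had a median of -0.24 (range -1.21 to 0.22), with 6 lower. Among the 4 shown, which were picked after their values were seen, Creld2 and Syvn1 had differences of -2.09 and -1.11, Hspa5 of -0.61 and Canx of 0.22. Capitals mark the match, which lies on the opposite strand of the printed one in Creld2, and no other motif searched fell in these windows. A search for the heat shock element, as GAA, TTC and GAA with 2 bases of any kind between them, found 153 promoters (0.466%) and 3 of 19 heat shock list genes (15.8%), namely Dnajb6, Hspe1 and Hspd1, with differences of -0.08, -0.08 and -0.03.

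Creld2 (chr15:88819474-88819583, plus strand): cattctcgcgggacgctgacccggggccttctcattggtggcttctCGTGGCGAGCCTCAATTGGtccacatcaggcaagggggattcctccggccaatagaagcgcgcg
Syvn1 (chr19:6046466-6046575, plus strand): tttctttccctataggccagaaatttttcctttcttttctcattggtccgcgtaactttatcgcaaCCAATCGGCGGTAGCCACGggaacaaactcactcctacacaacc
Hspa5 (chr2:34771979-34772088, plus strand): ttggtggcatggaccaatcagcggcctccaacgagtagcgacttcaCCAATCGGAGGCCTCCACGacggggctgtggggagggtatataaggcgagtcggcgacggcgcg
Canx (chr11:50325755-50325864, minus strand): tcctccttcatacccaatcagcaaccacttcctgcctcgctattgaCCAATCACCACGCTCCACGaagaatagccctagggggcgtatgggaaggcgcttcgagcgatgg

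The lists of gluconeogenesis and of fatty acid oxidation held more genes with higher than lower values in Z-off livers at the unadjusted threshold, and the list of fatty acid synthesis did not. In gluconeogenesis and amino acid catabolism, 6 of 19 genes were higher and 3 lower at the unadjusted threshold, Pck1 among the higher ones and alone in being called, with a median of 0.20. Without Z-off 1, Z-off 2 or M-off 2 the count lower was 0. Of 30 fatty acid oxidation genes, 6 (20%) were higher and 0 lower, with a median of 0.15. Acaa2, the mitochondrial thiolase that closes the oxidation cycle, had 3541, 3520.2 and 3993 in Z-off livers, against 1938, 2124.5 and 1989 in M-off livers. The lines were clearly apart (log2 difference 0.86 ± 0.18, SE, adjusted p = 0.0968). Aldh3a2, which oxidises fatty aldehydes, had 491, 630.4 and 739 in Z-off livers, against 299, 268 and 457.5 in M-off livers (log2 difference 0.85 ± 0.24, SE, adjusted p = 0.19). In the fatty acid and triglyceride synthesis list, 2 of 24 were higher and 4 lower. Pklr, the liver pyruvate kinase, had 99.0, 133 and 269 in Z-off livers, against 394, 353 and 364 in M-off livers (log2 difference -1.19 ± 0.26, SE, adjusted p = 0.098). Z-off 3 came nearest to the M-off arrays. The count of 6 for fatty acid oxidation was 3 without M-off 1 or without M-off 2. In the fit of the 6 off arrays alone it was 6 higher and 2 lower, and Acaa2 was called (limma, adjusted p = 0.0354).

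The lists of conjugating enzymes, NRF2 targets and bile acid genes held more genes with higher than lower values at the unadjusted threshold. Of 37 conjugating enzyme genes, 6 (16.2%) were higher and 0 lower at the unadjusted threshold, with a median of 0.26. Gsto1, an omega class glutathione transferase, had 639, 772 and 567 in Z-off livers, against 393, 359.8 and 408 in M-off livers (log2 difference 0.74 ± 0.21, SE, adjusted p = 0.18). Of 24 NRF2 targets and antioxidant enzymes, 6 were higher and 0 lower, with a median of 0.06. Gclc, the catalytic subunit of the enzyme that limits glutathione synthesis, had 1620.1, 1910.5 and 1136 in Z-off livers, against 924, 803.5 and 1022.5 in M-off livers. Its groups did not overlap (log2 difference 0.73 ± 0.19, SE, adjusted p = 0.156). Of 27 bile acid genes, 6 were higher and 1 lower. Slco1a4, an uptake carrier for bile acids and other organic anions, had 532, 407.5 and 368 in Z-off livers, against 123, 137 and 181 in M-off livers (log2 difference 1.47 ± 0.39, SE, adjusted p = 0.16). Among 41 cytochrome P450 genes, 6 were higher and 7 lower. Cyp2c54 had 765, 1003 and 1719 in Z-off livers, against 2507, 2426 and 2761 in M-off livers, with Z-off 3 nearest to the M-off arrays (log2 difference -1.21 ± 0.27, SE, adjusted p = 0.102). None of these list genes was called in the fit of all 15 arrays. With single arrays left out, the count of higher genes was 3 to 7 for conjugating enzymes and 3 to 6 for NRF2 targets, lowest without Z-off 2 or M-off 1. In the fit of the 6 off arrays alone, 14 conjugating enzyme genes (37.8%) were higher and 1 lower, 7 NRF2 targets were higher and 2 lower, and 10 bile acid genes were higher and 0 lower, beside 7.57% higher and 6.16% lower among all genes. Slco1a4 was called in that fit (limma, adjusted p = 0.0368).

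The acute phase list had more genes with lower values. Of 29 acute phase genes, 1 was called (Apcs), 7 were lower and 1 higher at the unadjusted threshold, and the median was -0.11. Without M-off 1 the count lower was 4. Besides Apcs the lower ones included Saa1 and Saa2, serum amyloid A proteins named after their values were seen, with differences of -1.18 and -1.26. Saa1 had 683, 1014 and 532 in Z-off livers, against 2085, 2256 and 944.5 in M-off livers, and M-off 3 overlapped with the Z-off arrays. In the complement and coagulation list, 2 of 33 were higher and 2 lower. Hc, complement component C5, had 3003, 3181 and 2351 in Z-off livers, against 1003, 976 and 952 in M-off livers. The lines were apart by a wide margin without a call (log2 difference 1.51 ± 0.43, SE, adjusted p = 0.19), and Z-on minus M-on was 1.42, adjusted p = 0.075 with all arrays and 1.89, adjusted p = 0.0193, without M-on 1 and M-on 2. In the NF-kB and cell death list, 3 of 28 were higher and 0 lower. Nfkbia, the NF-kB inhibitor IκBα, had 968, 1124.5 and 1061 in Z-off livers, against 622, 625 and 737 in M-off livers, close to the threshold (log2 difference 0.66 ± 0.12, SE, adjusted p = 0.058). Cxcl1 of the same list had 737, 679 and 602 in Z-off livers, against 132, 129 and 109 in M-off livers, without overlap (log2 difference 2.31 ± 0.57, SE, adjusted p = 0.131).

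The remaining lists held few genes at the unadjusted threshold. Of 31 cytosolic ribosomal protein genes, 0 were higher and 4 lower, and the median was -0.11. All Z-off arrays lay below all M-off arrays for 10 of the 31, beside 8.79% of all genes. Rps18, a protein of the small subunit, had 2741, 2506.5 and 2331 in Z-off livers, against 3331, 3178 and 3012 in M-off livers, without overlap (log2 difference -0.33 ± 0.12, SE, adjusted p = 0.335). Of 19 genes of cholesterol synthesis and uptake, 0 were higher and 2 lower. Mvd, which makes isopentenyl diphosphate, had 72.7, 50.4 and 102 in Z-off livers, against 201, 153 and 138 in M-off livers (log2 difference -1.01 ± 0.31, SE, adjusted p = 0.235). Of 26 iron and heme genes, 3 were higher and 1 lower. Alas1, the enzyme that limits heme synthesis in liver, had 1703.5, 138 and 402 in Z-off livers, against 2029.9, 1558 and 3223 in M-off livers, with a wide spread in Z-off and overlap through Z-off 1 (log2 difference -2.19 ± 0.59, SE, adjusted p = 0.164). Of 28 autophagy and lysosome genes, 3 were higher and 3 lower. Ctsl, the lysosomal protease cathepsin L, had 1946, 1665 and 1419 in Z-off livers, against 2825, 2888 and 2696 in M-off livers (log2 difference -0.75 ± 0.17, SE, adjusted p = 0.104). Gabarapl1, an Atg8 family protein, had 2115, 2431 and 1999.9 in Z-off livers, against 1315, 1268 and 1421.5 in M-off livers, so that its lines were apart in the opposite direction (log2 difference 0.70 ± 0.19, SE, adjusted p = 0.178). Of 14 male-type liver genes 0 were higher and 2 lower, and of 16 female-type genes 2 were higher and 1 lower.

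Among all genes, 156 differed by more than 1 log2 unit and 22 by more than 2, and most of these were not called. Igfbp1, an insulin-repressed binding protein for insulin-like growth factors, had 794, 1019 and 93.2 in Z-off livers, against 8.1, 42.8 and 18.9 in M-off livers. Z-off 3 was far below Z-off 1 and Z-off 2 (log2 difference 3.62 ± 0.77, SE, adjusted p = 0.0972). Egr1, an immediate early transcription factor, had 583, 1022 and 163 in Z-off livers, against 36.7, 38.8 and 39.9 in M-off livers, again with Z-off 3 the lowest of its line (log2 difference 3.14 ± 0.81, SE, adjusted p = 0.146). Serpina12, the adipokine vaspin, had 50.3, 48.7 and 1050.5 in Z-off livers, against 1480.4, 1723 and 1999.9 in M-off livers (log2 difference -3.39 ± 0.98, SE, adjusted p = 0.192). Here Z-off 3 was near the M-off arrays and the other Z-off arrays were low. Asns, asparagine synthetase, had 127, 74.7 and 10.7 in Z-off livers, against 19.7, 9.5 and 7.4 in M-off livers, so that Z-off 3 overlapped with M-off (log2 difference 1.34 ± 0.43, SE, adjusted p = 0.266).

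Moxd1, a copper monooxygenase-like protein on the male-type list, had 0.4, 1.1 and 0.8 in Z-off livers, against 188, 1069 and 52.5 in M-off livers, with a wide spread in M-off (log2 difference -3.88 ± 1.03, SE, adjusted p = 0.16). Cyp2c39 had 93.5, 114.5 and 589 in Z-off livers, against 11.9, 1 and 2.5 in M-off livers, with Z-off 3 the highest array (log2 difference 3.32 ± 0.77, SE, adjusted p = 0.108). Mndal, an interferon-inducible gene of the Ifi200 family named after its values were seen, had 4.3, 0.8 and 0.3 in Z-off livers, against 83.5, 75.7 and 103 in M-off livers (log2 difference -2.54 ± 0.49, SE, adjusted p = 0.0731). Members of that family are close in sequence, and the array may not tell them apart. Of the clock list, 0 genes were higher and 3 of 24 lower at the unadjusted threshold. Per2, a repressor of the clock, had 23.7, 7.7 and 44.0 in Z-off livers, against 108, 95.4 and 89.0 in M-off livers. The lines did not overlap, and the adjusted p was just above the threshold (log2 difference -1.56 ± 0.29, SE, adjusted p = 0.0535). Dbp, a clock output factor named after its values were seen, had 81.6, 65.0 and 815 in Z-off livers, against 465, 428.5 and 385 in M-off livers (log2 difference -1.24 ± 0.60, SE, adjusted p = 0.55), where Z-off 3 was above all M-off arrays and Z-off 1 and 2 below them. The labels used here give no hour of collection or feeding state.

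The mouse counterparts of the transgene and the genes followed in all groups were not called. Serpina1c had 10135, 9668 and 10027 in Z-off livers, against 10125, 11220.3 and 11073 in M-off livers (log2 difference -0.12 ± 0.13, SE, adjusted p = 0.886). Serpina1b differed by 0.00, adjusted p = 0.999, with overlapping ranges. These genes have near-identical copies that probes may not separate. Rgs16, a regulator of G protein signalling, had 0.4, 5.7 and 32.4 in Z-off livers, against 1, 5 and 2.8 in M-off livers, with Z-off 3 the highest array (log2 difference 0.45 ± 0.43, SE, adjusted p = 0.846). Xist was 15.6 to 16.7 in Z-off and 13.7 to 18.1 in M-off livers, and the Y-linked Eif2s3y 245.7 to 427.6 in Z-off and 304 to 437.6 in M-off livers, so these ranges overlapped. The Y-linked Uty had 74.9, 66.7 and 80.0 in Z-off livers, against 35.5, 65.3 and 54.2 in M-off livers, without overlap and without a call (log2 difference 0.43 ± 0.20, SE, adjusted p = 0.539).

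Markers of other tissues stood high on single arrays. Sums of erythroid, stellate cell, adipocyte and B cell markers did not overlap between the lines. Summed signals of 10 skeletal muscle markers were 84.9, 81.5 and 60.4 in Z-off, against 1606, 54.8 and 361.5 in M-off livers, so M-off 1 and M-off 3 were high. Acta1, skeletal actin, had 2.6, 6.3 and 3.1 in Z-off livers, against 478, 12.1 and 105 in M-off livers. Of the 10 markers, 5 were lower in Z-off at the unadjusted threshold, 2 without M-off 1 and 8 without M-off 2. Sums of 9 exocrine pancreas markers were 2413, 918 and 1077 in Z-off, against 1097, 1035.5 and 978 in M-off livers, with Z-off 1 high. Of these, 7 were higher at the unadjusted threshold, 1 without Z-off 1, and 4 without M-off 1 or M-off 3. Sums of 7 erythroid markers were 489.7, 1165 and 1040.5 in Z-off, against 487.5, 360 and 389 in M-off livers. Z-off 2 and Z-off 3 were high, and Z-off 1 was barely above M-off 1. Sums of 11 stellate cell and fibroblast markers were 1377, 1548 and 1192 in Z-off, against 1921, 1717 and 1603 in M-off livers, lower on every Z-off array. Lum, the matrix proteoglycan lumican, had 32.9, 54.2 and 49.5 in Z-off livers, against 125, 77.7 and 109 in M-off livers, and was the only one of the 11 with an unadjusted p under 0.05 (log2 difference -0.96 ± 0.25, SE, adjusted p = 0.146). Sums of 7 adipocyte markers were 147, 173 and 154 in Z-off, against 77.4, 133 and 127 in M-off livers, higher on every Z-off array. Sums of 7 B and plasma cell markers were also higher on every Z-off array. They were 148.6, 128.2 and 129.9 in Z-off, against 93.9, 86.4 and 122.7 in M-off livers, and 1 of the 7 was higher at the unadjusted threshold. None of the marker genes was called in Z-off minus M-off with all arrays in the fit. Without M-off 2, however, 4 of the 10 skeletal muscle markers were called, among 12 calls over all genes. Without Z-off 3, 3 of the 9 exocrine pancreas markers were called, among 52 calls over all genes.

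Without Z-off 1 and M-off 1 together, a choice made after the data were seen, 3 genes were called, among them Pik3c2g and Hsd17b6 of the 16. In that fit 9 of the 22 heat shock genes and 10 of the 32 ER genes were lower at the unadjusted threshold, with medians of -0.59 and -0.35. That fit kept M-off 3, whose muscle sum was 361.5, and 3 of 10 muscle markers were still lower at that threshold. It also had fewer arrays, so it cannot show what part the muscle and pancreas signals have in the results. Their part, and that of the other marker lists, was not tested.

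**Figure D5:**
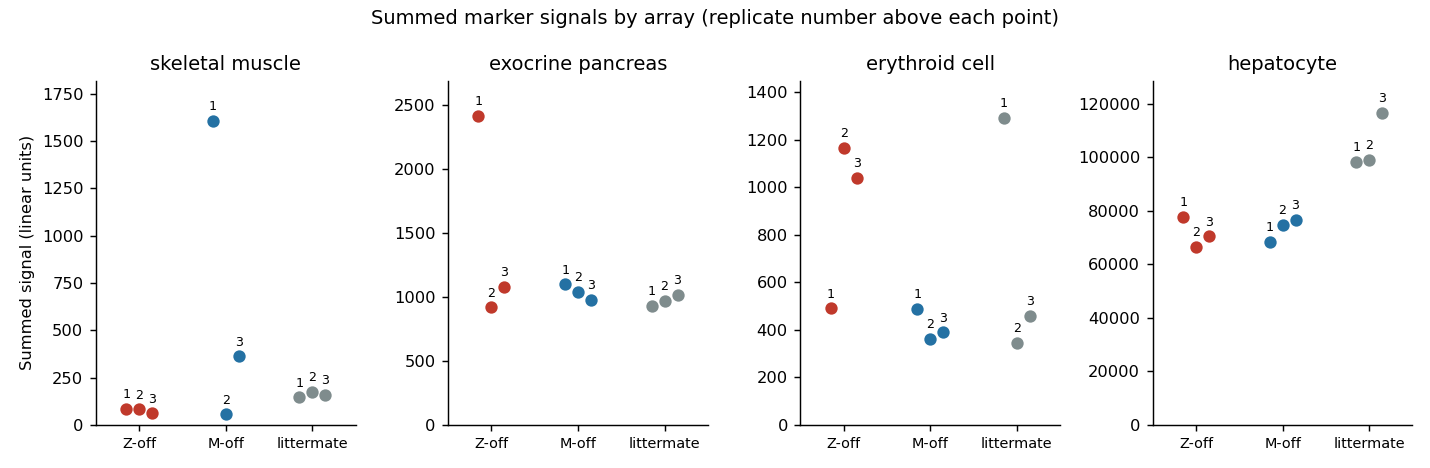
Summed linear signal of the marker genes of 4 cell types (1 panel each, y axis from 0) on each array of Z-off, M-off and littermate livers; numbers above the points are replicate numbers. M-off 1 at 1606 stands out for skeletal muscle and Z-off 1 at 2413 for exocrine pancreas.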

How the data were processed

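Liver RNA of 15 mice was hybridised to mouse expression arrays, and the 6 arrays of Z-off and M-off livers were compared. The labels gave each array its group and number. The authors deposited 1 intensity per probe set, in linear units between 0 and 22995.4. RMA, with no version, is the only tool in the submitters' processing notes, yet the deposited values were linear, held zeros and had a trimmed mean (2% cut at each end) of 150.06 to 150.08 on all 15 arrays. Their scaling was not given in the sources used here, and the number of arrays, not a read depth, limits the precision.

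Of 22690 probe sets, 64 were controls, 20380 had 1 gene, 691 several and 1555 none in the probe annotation. The probe set of highest mean signal stood for each gene (12393 genes, 4956 with more than 1), and 20351 probe sets matched RefSeq genes of GRCm38.p6, with 0 symbols changed. After adding 16 and taking log2, limma 3.58.1 in R 4.3.3 fitted 1 mean per group to all 15 arrays, with 10 residual and 3.88 prior degrees of freedom. All tests were two-sided. Benjamini-Hochberg adjustment ran over all genes of a contrast, and an adjusted p under 0.05 made a call. Figures used matplotlib 3.10.9 in Python 3.11.15.

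The comparison, its gene lists and the constant were chosen with earlier results of these data known. Named genes were the called genes with separated arrays (15 rises and 15 falls at most, without clone names), for each list its called members (at most 4) or else its 2 genes of smallest p, and Serpina1 genes, Rgs16, Hspa5, Dnajb9, Xbp1, Ddit3, Xist and Y-linked genes. Further genes are said to be named after their values were seen, and other list members appear only as further values of their list. Alternatives were fits of 6 or 9 arrays, quantile normalization, a dim-gene filter (40th percentile), every probe set, intensity trend with robust spread, array weights, constants of 1 and 64, replicate number as a block and single arrays left out. The fit was tested on simulated data with known differences.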

Additional observations from a re-analysis of the deposited data

Results flagged for a closer look

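For 12 named genes the line difference with the transgene on differed from that with it off by the interaction test of limma (adjusted p 0.0252 to 0.0461 over all genes). The differences below are Z-on minus M-on less Z-off minus M-off, in log2 units. Where a gene was named for its off difference, that difference is part of the interaction, so the test is not independent of the choice. Of the 12, 11 had off and on differences of opposite sign, Hsd17b6 being the exception. Without M-on 1 and M-on 2 the number was 10, Vldlr then having the same sign (on 0.37). Choosing genes by the interaction call favours opposite signs, so these sign counts are no independent evidence. The share of opposite signs over all genes was not computed. Of the 12, 10 were also called without M-on 1 and M-on 2, the arrays with female-type sex-linked signals.

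Among the called genes of the off comparison, the values were Vldlr at -3.48 (on -0.82, off 2.66), Hsd17b6 at -2.12 (on 0.04, off 2.16), Cirbp at -1.25 (on -0.16, off 1.09), Btg1 at -1.19 (on -0.26, off 0.93) and Mmp24 at -1.14 (on -0.29, off 0.84). Metabolic genes that differed were Acaa2 at -1.57 (on -0.71, off 0.86), a thiolase of fatty acid oxidation, and Cyp2c39 at -6.20 (on -2.88, off 3.32), an epoxygenase-family enzyme. The ER gene Herpud1 at 1.44 (on 0.50, off -0.94), the clock gene Per2 at 2.08 (on 0.52, off -1.56) and the sex-biased genes Susd4 at 2.74 (on 1.05, off -1.68) and Gna14 at 2.77 (on 1.00, off -1.77) ran the other way. The Y-linked gene Eif2s3y at 2.61 (on 2.50, off -0.11) also differed and was 1.42 without M-on 1 and M-on 2. Hsd17b6 and Herpud1 lost the call without those arrays (adjusted p = 0.0532 and 0.0581). The interaction count of 76 genes was 2 to 19 without any 1 of the off arrays other than Z-off 3. Leaving out any 1 of the 6 off arrays kept 0 to 2 of 6 calls per gene.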

How the results depend on the processing

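Of the 16 called genes, all kept their direction under every alternative that tested them. Counts of calls moved more than directions. Z-off minus M-off called 31 genes (16 higher, 15 lower) in a fit of the 6 arrays, 37 (22 and 15) with 9 arrays, 13 (6 and 7) after quantile normalization, 24 (14 and 10) above the 40th percentile of signal, 22 (11 and 11) over all probe sets, 26 (18 and 8) with an intensity trend and robust spread, 229 (129 and 100) with array weights, 27 (19 and 8) with a constant of 1 and 24 with 64. With single arrays left out the count was 6 to 52, with 3 to 29 higher and 1 to 23 lower, and the genes called with the same sign off and on were 2 to 4. Those shared genes were 22 with array weights. Z-on minus M-on had 1012 calls over all probe sets, 1849 with array weights, 127 with a constant of 1, and 75 to 1664 with single arrays left out. The interaction had 1156 calls with array weights, 21 with a constant of 1, 130 with 64, and 2 to 1022 with single arrays left out. The cause of these shifts was not tested. Some of the fits also differed in the number of arrays or of probe sets, and the part of that was not tested either.

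Chosen after the data were seen, leaving out Z-off 1 and M-off 1 gave 3 calls (2 and 1), 1 shared gene, 215 calls in Z-on minus M-on and 0 in the interaction (limma; 1423 genes at an unadjusted p under 0.05). Leaving out M-on 1 and M-on 2 gave 28 calls (19 higher), 7 shared genes, 1269 in Z-on minus M-on and 805 in the interaction. Single-array results were lowest without Z-off 2 or M-off 1 (6 calls each).

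Replicate numbers did not pair the arrays. Deviations from the line means correlated at -0.025, 0.003 and -0.018 for numbers 1, 2 and 3. With the replicate number as a block, 12 genes were called (7 higher, 5 lower), 10 of the 16 among them, with 3 shared genes and 467 calls in Z-on minus M-on, and the interaction had 2 calls.

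Differences near 0, none of them called, changed sign. With single arrays left out, Xist ranged over -0.021 to 0.079 (0.02 with all arrays), Serpina1b over -0.10 to 0.058 (0.0004), Kdm5d over -0.18 to 0.13 (-0.05) and Eif2s3y over -0.32 to 0.058 (-0.11). Xist was also -0.043 after quantile normalization and Serpina1b -0.007 with array weights, and without Z-off 1 and M-off 1 Serpina1b was -0.15 and Kdm5d 0.12. The 3 arrays a group limit the precision, and differences between signals under the added constant of 16 are compressed.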
